A study of Mus musculus with 16 samples.

Results

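Kidneys in renal failure from Kl/Kl mice were compared between males and females, which is also a comparison between the 2 deposited tables. Apart from 1 library left out for its transcripts, the libraries were chosen by the labels and not by a measured value. The 5 male Kl/Kl libraries came from the table that holds libraries 9 to 16. The 3 female Kl/Kl libraries came from the table that holds libraries 1 to 8. Together they were 8 of the 16 libraries of the series. Female Kl/Kl replicate 3 was left out because its transcripts were not those of kidney (the values follow with the library checks). All mice were of strain 129S1/SvlmJ, made congenic for the recessive Klotho mutation. The Kl/Kl males were 44 to 47 days old and the Kl/Kl females 45 to 48 days old, and both groups were homozygous for the same allele and labelled as having renal failure. Healthy kidneys served as the reference: 3 male controls of genotype +/Kl, 45 to 46 days old, and 4 female controls of genotype +/+, 45 to 49 days old. Sex, table and range of library numbers go together and cannot be told apart, and in the controls the Kl genotype goes with them too. The tables were normalised separately, so each level set across them was first brought to 1 common column total. The labels do not say that the libraries of a group came from separate animals, so p-values measure the spread between these libraries.

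Klotho is a membrane protein of the distal tubule and, at lower levels, of the proximal tubule. It serves as the co-receptor through which the bone hormone FGF23 lowers phosphate reabsorption and active vitamin D, and mice without it develop a syndrome that resembles ageing. The kidney of healthy adult mice differs between the sexes, mostly in the proximal tubule, where androgens raise a set of transporters, cytochromes P450 and conjugating enzymes in males, and where another set is higher in females. The comparison asks which autosomal genes still differ between males and females when the Klotho genotype is the same and the kidney is failing.

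Among the 8 Kl/Kl libraries, pairwise Spearman correlations across autosomal genes ran from 0.909 to 0.983, and male replicates 1 and 4 stood furthest from the rest, with median correlations of 0.933 and 0.927 to the other libraries against 0.958 to 0.970 for the remaining members. Mitochondrial genes took 35.4% to 44.8% of the summed TPM in Kl/Kl males and 37.8% to 39.7% in Kl/Kl females. TPM keep no read depth, and reads per library were not estimated here. Xist lay at 31.7 to 38.5 TPM in the females and at or below 0.404 TPM in the males, and 0 of 5 sex-linked genes had a library out of place. Umod, which encodes the uromodulin of the thick ascending limb, lay at 233 to 344 TPM in the 8 libraries and at 1.81 TPM in the library left out. Slc34a1, the main phosphate transporter of the proximal tubule, lay at 89.3 to 274 TPM in the 8 libraries and at 0.369 TPM in the library left out. That library instead held 1275 TPM of the atrial peptide gene Nppa, 487 TPM of the atrial myosin light chain Myl7 and 389 TPM of the airway secretoglobin Scgb1a1, which did not exceed 0.684, 0.488 and 0.0404 TPM in any other library.

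Kl itself was low in all 8 libraries. It was measured at 0.0235, 0.0390, 0.0452, 0.186 and 0.265 TPM in the Kl/Kl males and at 0.345, 0.0990 and 0.557 TPM in the Kl/Kl females, against 4.14 to 15.1 TPM in male controls and 9.88 to 22.8 TPM in female controls. The 2 Kl/Kl groups overlapped. Their difference, male minus female, was -0.25 on the log2(TPM + 1) scale, and a two-sided exact permutation test over 56 arrangements gave p = 0.143, where the smallest possible value is 0.0357. Kl lay under the minimum mean of 1 TPM and was not part of the test across genes.

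No autosomal gene passed the threshold between the failing kidneys of males and females. Of 8556 genes whose mean reached 1 TPM, limma called 0 between Kl/Kl males and Kl/Kl females at a Benjamini-Hochberg adjusted p under 0.05 (0% of those tested), with a smallest adjusted p of 0.121. Without adjustment 2360 genes (27.6%) had p under 0.05, of which 44 were higher in males and 2316 higher in females. The median difference over all genes was -0.14 (male minus female, log2(TPM + 1)), beside a median standard error of 0.11, so most of these genes lay slightly higher in females. This shift depended on the scaling. With median-of-ratios scaling, which centres each library on its typical gene, the median difference was 0.01, 406 genes were higher in males and 343 higher in females at an unadjusted p under 0.05, and the smallest adjusted p was 0.515. Differences below are given on the common total and are to be read against the median of -0.14.

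Between the healthy kidneys of the same series limma called 75 of 8237 genes (0.911%) higher in male controls and 127 (1.54%) higher in female controls, with a median difference of -0.26. With median-of-ratios scaling these counts were 390 and 255. Without adjustment 1979 control genes (24.0%) had p under 0.05, a share below the 27.6% of Kl/Kl. Male control replicate 3 stood apart, with 54.3% of its TPM from mitochondrial genes, and without it 384 genes were called higher in males and 778 higher in females. Over the 7967 genes tested in both comparisons, 55 lay at least 1 log2 unit higher and 154 at least 1 log2 unit lower in male than in female controls, and the same counts in Kl/Kl were 14 and 27. The interquartile range of the differences was 0.31 in controls and 0.22 in Kl/Kl. Across these genes the 2 sets of differences, which share no library, had a Pearson correlation of 0.08, given as a description since genes are not independent replicates. The median standard error over the genes tested in each comparison was 0.17 in controls and 0.11 in Kl/Kl. A larger error alone widens the spread, raises the counts past 1 log2 unit and lowers a correlation. Its part in these values was not tested.

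**Figure D1:**
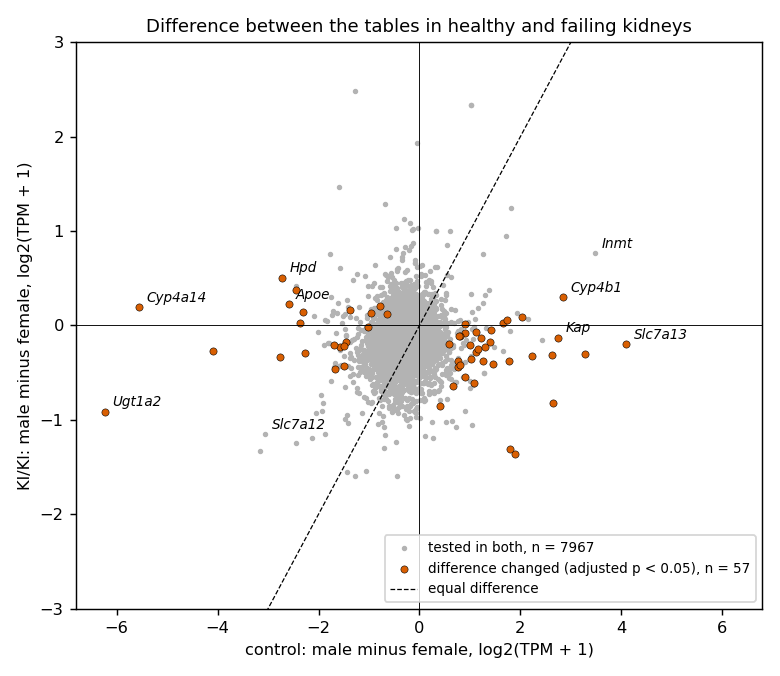
Each point is 1 of 7967 autosomal genes tested in both comparisons, placed by its male minus female difference in controls (x axis) and in Kl/Kl (y axis), both in log2(TPM + 1). The 57 orange genes have a difference that changed between control and Kl/Kl at an adjusted p under 0.05, and the dashed line marks an equal difference. The axes have different ranges, and Slc7a13 (4.10 in controls, -0.20 in Kl/Kl) and Cyp4a14 (-5.56 and 0.20) lie near the horizontal line through 0, while Ugt1a2 (-6.24 and -0.91) lies below it.

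Whether the difference itself changed was tested in a model of all 4 groups. An offset that a table gives a gene cancels there if it is constant in log2(TPM + 1). A constant factor on TPM does not fully cancel for genes that lie under 1 TPM in Kl/Kl but not in controls. limma called 52 of 8440 genes (0.616%) with a more negative male minus female difference in Kl/Kl than in controls and 22 (0.261%) with a more positive one, with a median change of 0.12 over all genes. Because control males were +/Kl and control females +/+, the change between control and Kl/Kl cannot be told apart from that of 1 mutant allele in the males' reference. Without male control replicate 3 the counts were 286 and 35, and 73 of the 74 genes were still called. The total of 74 became 46 without female Kl/Kl replicate 1, 49 without female control replicate 2, and 18 once female Kl/Kl replicate 3 was added. The genes described next had the largest differences in controls or the smallest p for the change of difference. The control values alone chose many of them, and the Kl/Kl libraries took no part in that choice. Genes taken for the smallest p of the change were chosen by control and Kl/Kl values together. In both cases the change of difference contains the values that made the choice, so its size is inflated.

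The first group were genes high in healthy males. Kap, the androgen-regulated protein of the kidney (chr6:133826814-133830726, mm39, as the files give it), was measured at 3907, 3451 and 4081 TPM in male controls and at 732, 383, 793 and 459 TPM in female controls. In Kl/Kl it was measured at 76.2, 151, 153, 173 and 369 TPM in males and at 292, 124 and 155 TPM in females. The Kl/Kl groups overlapped, at a level below that of every control library, and their difference was -0.13 (95% interval -1.18 to 0.92) against 2.75 in controls. The change of difference was -2.88 (SE 0.57, adjusted p = 0.0223), a call that was lost without male control replicate 1 (adjusted p = 0.0600) and in some other settings.

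Slc7a13, an amino acid transporter of the late proximal tubule (chr4:19818725-19842219), was measured at 42.1, 38.4 and 16.5 TPM in male controls and at 0.628 to 1.06 TPM in female controls. In Kl/Kl it was measured at 2.04, 3.49, 3.46, 1.39 and 2.70 TPM in males and at 5.26, 4.64 and 0.862 TPM in females, so the groups overlapped. The difference was 4.10 in controls and -0.20 (95% interval -1.09 to 0.69) in Kl/Kl, a change of -4.30 (SE 0.52, adjusted p = 0.000418). Cyp4b1, a fatty acid and xenobiotic hydroxylase, lay at 69.3 to 147 TPM in male controls and at 10.7 to 18.6 TPM in female controls. It was measured at 9.25, 4.43, 4.48, 21.2 and 8.37 TPM in Kl/Kl males and at 5.16, 5.26 and 9.61 TPM in Kl/Kl females, with replicate 4 the highest male. The difference fell from 2.84 to 0.30 (95% interval -0.71 to 1.31), and its change only just passed the threshold (adjusted p = 0.0490) and was lost in many alternatives.

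Further genes that were high in healthy males were measured at or near female control levels in all 8 Kl/Kl libraries. Acsm3, a mitochondrial medium-chain acyl-CoA synthetase, was measured at 36.6, 35.0 and 16.3 TPM in male controls, at 0.0527 to 0.305 TPM in female controls, at 0.127 to 0.645 TPM in Kl/Kl males and at 0.134 to 0.821 TPM in Kl/Kl females. Slco1a1, an organic anion transporter, reached 6.22 to 17.8 TPM in male controls and no more than 0.298 TPM in any Kl/Kl library. Ugt2b37, a UDP-glucuronosyltransferase, reached 9.68 to 16.7 TPM in male controls and no more than 0.311 TPM in Kl/Kl. The changes of difference were -4.71 for Acsm3, -3.71 for Slco1a1 and -3.63 for Ugt2b37, with limma adjusted p of 4.16e-07, 3.81e-06 and 8.96e-09. The P450 genes Cyp4a12a (adjusted p = 6.8e-10) and Cyp2j13 (adjusted p = 1.35e-05) had the same pattern, with 4.59 to 12.2 TPM in male controls and no more than 0.310 TPM in Kl/Kl. Eif1ad4 (3.99 to 16.2 TPM in male controls, at most 0.275 TPM in Kl/Kl) also belonged here. Nhp2, a protein of small nucleolar ribonucleoproteins, lay at 12.9 to 17.3 TPM in male controls, at 4.33 to 5.56 TPM in female controls, and at 4.73 to 5.37 and 4.92 to 5.77 TPM in Kl/Kl males and females. Members of the Cyp4a, Cyp2j, Ugt2b and Eif1ad families have close copies, and how the deposited values divide reads between copies is not given in the sources used here.

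Inmt, an indolethylamine methyltransferase, was an example of a gene whose change of difference missed the threshold. It was measured at 126, 103 and 120 TPM in male controls and at 4.82 to 18.1 TPM in female controls, and in Kl/Kl at 45.9, 76.1, 56.1, 67.9 and 55.4 TPM in males and 37.3, 76.1 and 14.1 TPM in females. The difference was 0.77 (95% interval -0.23 to 1.77) in Kl/Kl, and the change of -2.70 had an adjusted p of 0.0629. Acy3, an aminoacylase, had its means in the opposite order in Kl/Kl. It lay at 495 to 807 TPM in male and 164 to 198 TPM in female controls, and at 15.2, 55.7, 25.1, 21.5 and 101 TPM in Kl/Kl males and 95.6, 58.7 and 115 TPM in Kl/Kl females. Its Kl/Kl difference of -1.31 did not pass the test (adjusted p = 0.175) and the groups overlapped, while the change of -3.10 had an adjusted p of 0.0335, which was lost in several alternatives. Ces1f, a carboxylesterase, lay at 16.5 to 33.6 TPM in male controls and at 0.0825 to 2.53 TPM over all Kl/Kl libraries.

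The second group were genes high in healthy females. For several of them the values of Kl/Kl males overlapped those of Kl/Kl females, and for others, given last, they did not on the common total. Ugt1a2, a UDP-glucuronosyltransferase (chr1:88128323-88146720), was measured at 0.111, 0.119 and 0.0314 TPM in male controls and at 65.6, 96.8, 81.2 and 83.8 TPM in female controls. In Kl/Kl it was measured at 52.6, 49.8, 61.9, 15.4 and 25.9 TPM in males and at 57.8, 59.4 and 99.1 TPM in females. The groups overlapped at the upper end of the males. The difference was -6.24 in controls and -0.91 (95% interval -1.90 to 0.08) in Kl/Kl, a change of 5.33 (SE 0.50, adjusted p = 2.43e-05). Ugt1a1, the bilirubin-conjugating enzyme of the same locus (chr1:88139681-88146720), was measured at 0.252, 0.462 and 0.681 TPM in male controls and at 5.49 to 7.83 TPM in female controls, and in Kl/Kl at 17.1, 14.3, 19.8, 29.1 and 12.0 TPM in males and 12.3, 18.9 and 10.1 TPM in females. Its change of difference was 2.83 (SE 0.35, adjusted p = 0.000451). The Ugt1a genes have their own first exons and share the remaining ones, so reads of the shared exons cannot be assigned to one of them.

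The regions before the start sites of 4 of these genes are printed because they differed strongly between male and female controls and less in Kl/Kl: Acsm3 and Cyp4b1 from the first group, and the neighbouring Ugt1a2 and Ugt1a1 from the second. Each run is the 250 bases before the start, 5′ to 3′ on the gene's strand, from RefSeq on GRCm38.p6, which is not the build of the deposited tables, at chr7:119760673-119760922 (plus strand), chr4:115647722-115647971 (minus strand), chr1:88200361-88200610 (plus strand) and chr1:88211709-88211958 (plus strand). Capitals mark the half-site of steroid receptors (TGTTCT, or AGAACA on the other strand) and the half-site of HNF1, a proximal tubule factor (GTTAAT, or ATTAAC on the other strand).
Acsm3: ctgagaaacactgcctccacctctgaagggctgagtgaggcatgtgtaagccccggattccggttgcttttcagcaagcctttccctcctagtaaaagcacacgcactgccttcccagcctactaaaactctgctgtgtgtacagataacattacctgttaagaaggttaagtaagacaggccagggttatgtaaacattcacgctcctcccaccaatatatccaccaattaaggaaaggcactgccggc
Cyp4b1: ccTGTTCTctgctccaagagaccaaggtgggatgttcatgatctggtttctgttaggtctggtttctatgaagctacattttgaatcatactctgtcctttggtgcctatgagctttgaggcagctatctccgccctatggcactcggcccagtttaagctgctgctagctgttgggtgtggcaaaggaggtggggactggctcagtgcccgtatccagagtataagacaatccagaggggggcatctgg
Ugt1a2: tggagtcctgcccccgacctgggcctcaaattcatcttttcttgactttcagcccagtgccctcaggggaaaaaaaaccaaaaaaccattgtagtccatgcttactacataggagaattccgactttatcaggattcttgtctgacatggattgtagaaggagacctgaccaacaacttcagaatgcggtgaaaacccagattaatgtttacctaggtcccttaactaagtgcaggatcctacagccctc
Ugt1a1: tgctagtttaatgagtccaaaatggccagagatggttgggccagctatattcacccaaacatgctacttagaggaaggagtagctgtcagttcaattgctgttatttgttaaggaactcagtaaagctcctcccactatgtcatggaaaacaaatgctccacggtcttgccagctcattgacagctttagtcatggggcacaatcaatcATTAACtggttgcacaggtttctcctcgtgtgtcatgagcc
Of 21 genes looked up, 13 were matched, with 16 such regions. The steroid receptor half-site was in 3 of them, beside 16.1% of all 32851 regions of this length, and the HNF1 half-site was in 3, beside 6.43% of all. A match of 6 letters is a description of the sequence and not a binding site.

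Cyp4a14, a fatty acid omega-hydroxylase (chr4:115343397-115353340), was measured at 0.169, 0.357 and 0.0673 TPM in male controls and at 42.7 to 75.5 TPM in female controls. In Kl/Kl it was measured at 84.8, 45.5, 59.6, 315 and 49.1 TPM in males and at 50.4, 65.8 and 108 TPM in females, so the groups overlapped apart from male replicate 4. The difference was 0.20 (95% interval -1.16 to 1.55) in Kl/Kl against -5.56 in controls, a change of 5.76 (SE 0.69, adjusted p = 0.000348). Apoe, which encodes the lipid carrier apolipoprotein E, was measured at 81.5, 69.2 and 38.3 TPM in male controls and at 332 to 420 TPM in female controls. It was measured at 1131, 875, 815, 897 and 591 TPM in Kl/Kl males and at 669, 1018 and 551 TPM in Kl/Kl females, above every control library in both sexes. The Kl/Kl difference was 0.23 (95% interval -0.33 to 0.78), and the change of 2.81 had an adjusted p of 0.000685.

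Hpd, the tyrosine-degrading 4-hydroxyphenylpyruvate dioxygenase, lay at 7.16 to 7.32 TPM in male controls and at 34.7 to 67.8 TPM in female controls, and at 68.7 to 165 TPM in Kl/Kl males and 47.3 to 104 TPM in Kl/Kl females. Its difference was 0.51 (95% interval -0.24 to 1.25) in Kl/Kl, and the change of 3.23 had an adjusted p of 0.000796. Cyp2d26 lay at 10.3 to 33.2 TPM in male controls and at 104 to 127 TPM in female controls, and its Kl/Kl libraries were at 116 to 183 TPM in males and 131 to 134 TPM in females. Its difference was 0.03 (95% interval -0.32 to 0.38) in Kl/Kl. Cbr1, a carbonyl reductase, lay at 5.14 to 7.68 TPM in male and 36.2 to 63.7 TPM in female controls and overlapped in Kl/Kl (18.9 to 32.8 and 24.4 to 41.0 TPM), with a change of 2.42 (adjusted p = 0.000736). Cyp4a10 had a Kl/Kl difference of 0.42 and a change of 2.87 that did not pass (adjusted p = 0.0932).

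Rdh19, a retinol dehydrogenase family gene, and Slc7a12, an amino acid transporter known as high in female kidneys, kept their order on the common total, each by a narrow gap. Rdh19 was measured at 0.404, 0.466, 0.248, 0.144 and 0.608 TPM in Kl/Kl males and at 2.37, 0.613 and 1.92 TPM in Kl/Kl females, against at most 0.188 TPM in male controls and 3.66 to 6.33 TPM in female controls. Its closest pair was 0.613 and 0.608 TPM, too near to hold an order against a change of scaling. It lay under the minimum mean in Kl/Kl and was not tested there. Its change of difference was 1.55 (adjusted p = 0.0146). Slc7a12 was measured at 0.935, 3.85, 2.42, 0.425 and 2.61 TPM in Kl/Kl males and at 6.60, 3.93 and 5.31 TPM in Kl/Kl females, so every female lay above every male, the closest pair being 3.93 and 3.85 TPM. Its difference was -3.06 in controls and -1.15 (95% interval -2.01 to -0.30, adjusted p = 0.126) in Kl/Kl, and with median-of-ratios scaling the Kl/Kl groups overlapped.

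**Figure D2:**
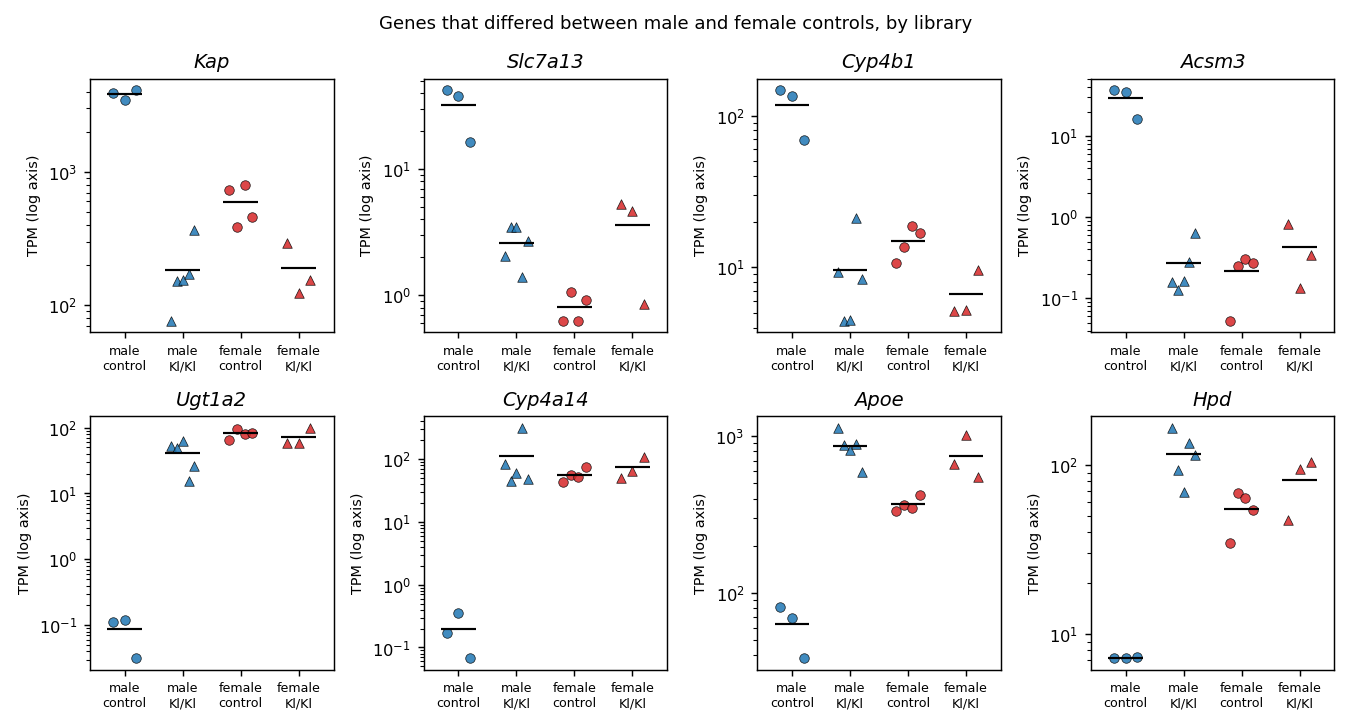
TPM on a log axis for 8 genes in each library of the 4 groups (circles, controls; triangles, Kl/Kl; blue, male; red, female), with a bar at the mean. The upper row shows genes high in healthy males, such as Kap at 3451 to 4081 TPM in male controls, and the lower row genes high in healthy females, such as Apoe at 332 to 420 TPM in female controls. In each panel the male and female triangles overlap.

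The genes called in controls were followed into the Kl/Kl libraries. The control values chose these genes, so their control medians are inflated by the choice. Part of the fall towards 0 in Kl/Kl was thereby fixed in advance. Of the 75 genes higher in male controls, 44 reached a mean of 1 TPM in Kl/Kl and 31 did not. Of the 44, 16 had the same direction in Kl/Kl, 0 had every male above every female (beside 0.351% of all genes, too few to read this 0), and the median difference went from 1.39 to -0.13 (0.03 with median-of-ratios scaling). Of the 127 genes higher in female controls, 118 were tested in Kl/Kl, 84 had the same direction, and the median went from -1.10 to -0.24 (-0.07 with median-of-ratios scaling). Over all genes tested in Kl/Kl the median was -0.14, so most genes pointed to females whatever the controls showed. The 2 counts of directions are therefore not read as a result about these genes. Every Kl/Kl female lay above every Kl/Kl male for 20 of the 118, where the same held for 1961 of all 8556 genes (22.9%). Those 20 included Slc7a12, the acyl-CoA thioesterase Acot3 (-1.94 in controls, -0.74 in Kl/Kl), the ornithine aminotransferase Oat (-1.59 and -0.43) and the salt-inducible kinase Sik1 (-1.07 and -0.53).

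The genes that differed most clearly within the failing kidneys were sought among those whose groups did not overlap, since 0 genes met the adjusted threshold. They were chosen after their values were seen, by the size of the difference where a group mean reached 5 TPM. No test is drawn from that choice. The choice inflates the differences of these genes, and the intervals printed for them are not corrected for it. An interval that leaves out 0 is therefore not read as evidence of a difference for these genes. Every female lay above every male for the 22.9% given above and every male above every female for 30 genes (0.351%). With median-of-ratios scaling the counts were 286 of 8131 (3.52%) and 375 (4.61%), so the direction of this excess turned with the scaling. Under both scalings 286 genes were higher in females and 28 higher in males.

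Of the 12 genes with the largest gaps in favour of females, 5 did not overlap under either scaling. Glyctk, the glycerate kinase of serine and fructose breakdown (chr9:106030056-106035338), was measured at 10.3, 23.6, 18.1, 10.1 and 21.5 TPM in Kl/Kl males and at 29.6, 28.9 and 46.0 TPM in Kl/Kl females. Its difference was -1.06 (95% interval -1.76 to -0.36, adjusted p = 0.121), beside -0.21 in controls. Pdzk1, a scaffold protein of proximal tubule transporters, was measured at 9.45, 21.1, 20.8, 12.2 and 21.3 TPM in males and at 28.2, 26.5 and 38.8 TPM in females, a difference of -0.89 (95% interval -1.53 to -0.25). In both genes male replicates 1 and 4 were the lowest. Slc10a5, a transporter of the bile acid carrier family, was measured at 5.13, 15.5, 10.9, 5.09 and 13.2 TPM in males and at 17.4, 19.1 and 17.8 TPM in females. Nus1, a subunit of the dehydrodolichyl diphosphate synthase, was measured at 5.97, 13.5, 14.6, 6.74 and 14.8 TPM in males and at 19.3, 18.5 and 22.0 TPM in females. Mettl7b, a methyltransferase-like protein, was measured at 11.1, 39.4, 29.7, 28.1 and 30.8 TPM in males and at 48.1, 52.0 and 45.7 TPM in females. Without male replicates 1 and 4 the differences were -0.67 for Glyctk, -0.52 for Pdzk1, -0.44 for Slc10a5, -0.45 for Nus1 and -0.54 for Mettl7b, so those 2 libraries carried a good part of each gap.

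The other 7 of the 12 overlapped once the libraries were scaled by the median of ratios: Slc7a12, Nudt19, Lrp2, Keg1, Slc17a3, Mlec and Slc16a13. Lrp2, the endocytic receptor megalin of the proximal tubule brush border, was measured at 8.85, 13.0, 11.3, 7.92 and 18.0 TPM in males and at 26.6, 18.3 and 29.2 TPM in females, a difference of -1.03 (95% interval -1.61 to -0.45, adjusted p = 0.121). Nudt19, a coenzyme A hydrolase, was measured at 12.1, 32.8, 32.9, 21.2 and 28.8 TPM in Kl/Kl males and at 35.1, 47.5 and 78.9 TPM in Kl/Kl females, while it had been higher in male controls (84.8 to 165 TPM against 42.8 to 79.2 TPM). Its control difference of 1.05 did not pass the test (adjusted p = 0.0936). Slc17a3, an organic anion and urate transporter, lay at 1.93 to 4.66 TPM in Kl/Kl males and at 5.49 to 10.1 TPM in Kl/Kl females. Bhlhe40, a transcription factor of the circadian and hypoxia responses, was measured at 13.0, 16.7, 12.4, 16.7 and 17.4 TPM in males and at 24.4, 25.4 and 29.6 TPM in females. Its difference was -0.77 (95% interval -1.08 to -0.45) with a standard error of 0.14, against 0.31 for Glyctk, and its groups did not overlap under either scaling.

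Of the genes whose groups did not overlap under either scaling, 7 with a regular symbol and a group mean of 5 TPM or more lay higher in males. Insig1, which holds back sterol synthesis by retaining the SREBP complex in the endoplasmic reticulum (chr5:28276361-28283661), was measured at 24.8, 10.4, 19.7, 20.4 and 10.6 TPM in males and at 8.82, 7.78 and 8.55 TPM in females. Its difference was 0.88 (95% interval 0.24 to 1.51, adjusted p = 0.123), beside -0.12 in controls. Cirbp, a cold-inducible RNA-binding protein (chr10:80001819-80008621), was measured at 23.5, 8.46, 8.69, 25.3 and 15.2 TPM in males and at 8.36, 7.08 and 8.18 TPM in females, a difference of 0.83 (95% interval 0.02 to 1.64). Tmem203, a membrane protein of the endoplasmic reticulum, was measured at 23.5, 14.8, 14.9, 27.5 and 17.3 TPM in males and at 13.4, 13.6 and 13.2 TPM in females. In Cirbp and Tmem203 male replicates 1 and 4 were the highest and replicates 2 and 3 lay barely above the females. Without replicates 1 and 4 the differences were 0.58 for Insig1, 0.37 for Cirbp and 0.20 for Tmem203.

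Sat2, Tst and Rpl32l had smaller gaps. Sat2, an acetyltransferase, was measured at 11.3, 7.61, 7.73, 11.0 and 9.50 TPM in males and at 7.33, 7.49 and 6.55 TPM in females. Tst, the mitochondrial sulfurtransferase rhodanese, lay at 12.8 to 18.7 TPM in males and at 12.3 to 12.4 TPM in females. Rpl32l, which resembles a ribosomal protein gene and may share reads with it, lay at 8.39 to 14.7 TPM in males and at 6.96 to 8.23 TPM in females. The last of the 7 was Cyp21a1, the steroid 21-hydroxylase of the adrenal cortex, at 3.28, 25.0, 0.0738, 0.0493 and 0.0205 TPM in males and no higher than 0.0165 TPM in the females. Of 10 adrenal cortex markers, 5 were tested, and their summed level was 16.3 and 74.8 TPM in male replicates 1 and 2 and 1.25 to 2.24 TPM in the other 6 libraries. The part of adrenal tissue in other differences was not tested. Without male replicates 1 and 2 limma again called 0 genes, but with fewer libraries this tells nothing about the adrenal part.

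**Figure D3:**
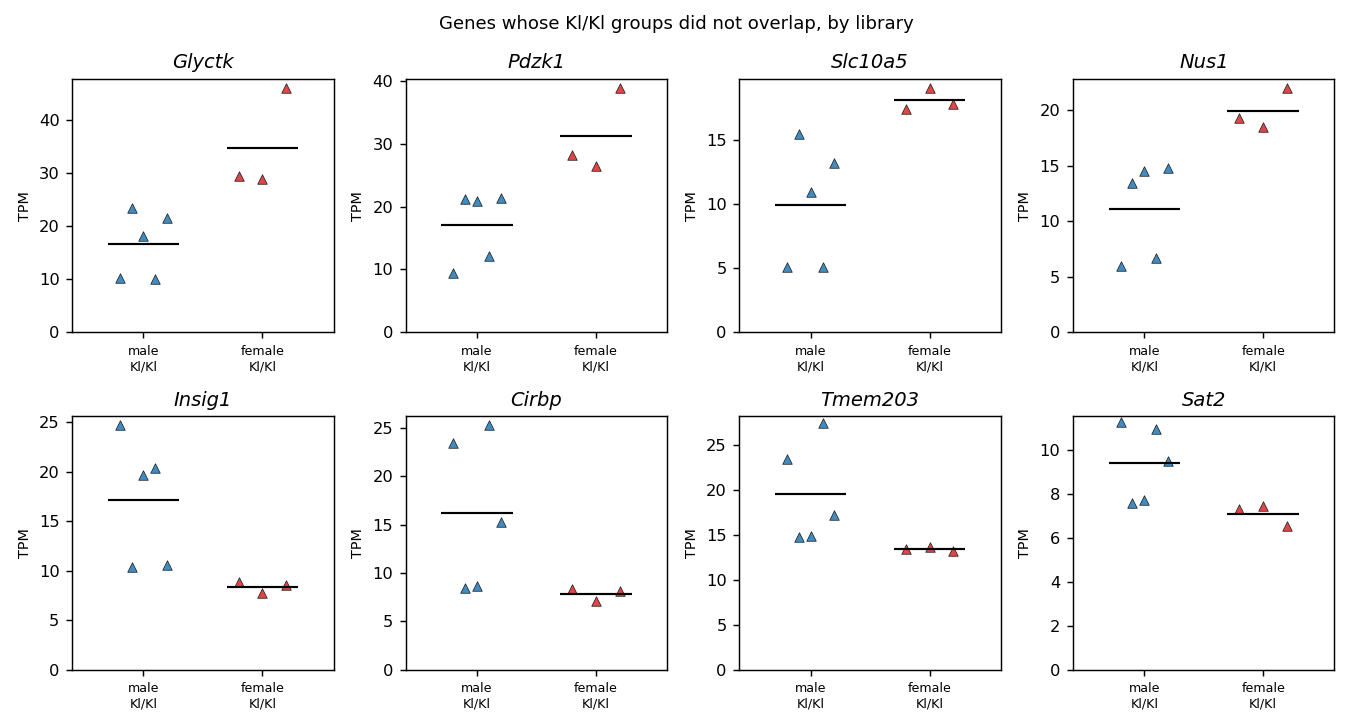
TPM on a linear axis from 0 for 8 genes whose Kl/Kl groups did not overlap under either scaling, in the 5 male (blue) and 3 female (red) Kl/Kl libraries, with a bar at the mean. The upper row holds genes higher in females (Glyctk 28.9 to 46.0 TPM against 10.1 to 23.6 TPM) and the lower row genes higher in males (Insig1 10.4 to 24.8 TPM against 7.78 to 8.82 TPM).

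Some of the largest differences in Kl/Kl came with a wide spread among the males. Depp1, a target of FOXO factors, had the largest of all among genes with a regular symbol and a group mean of 5 TPM or more, 2.49 (SE 1.02, adjusted p = 0.163). It was measured at 157, 3.25, 30.9, 76.0 and 11.4 TPM in Kl/Kl males and at 4.63, 3.73 and 4.17 TPM in Kl/Kl females, and the groups overlapped. Eif4ebp3, an inhibitor of cap-dependent translation, was measured at 154, 6.73, 15.0, 78.1 and 7.55 TPM in males and at 3.26, 5.57 and 10.9 TPM in females. Igfbp1, an insulin-repressed binding protein of insulin-like growth factors, was measured at 84.3, 3.00, 10.05, 29.8 and 15.4 TPM in males and at 7.33, 3.96 and 5.72 TPM in females. All 3 were highest in male replicate 1 and next highest in replicate 4. Pdk4, a kinase that shuts off pyruvate oxidation, was measured at 10.6, 2.12, 4.46, 71.0 and 1.81 TPM in males and at 6.09, 6.42 and 11.6 TPM in females. It was highest in male replicate 4, and its mean difference was -0.06.

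Lists of kidney genes are described by their counts and medians. limma called 0 members of every list between Kl/Kl males and females, and without adjustment their counts are to be read against 27.6% of all genes. Of 10 tested genes known as male-biased or androgen-induced, 4 were higher in females and 1 in males at an unadjusted p under 0.05, and the median was -0.24. In controls 12 of the 16 tested members were called higher in males, beside 0.911% of all genes, and 1 was called higher in females, with a median of 2.36. The 1 male-higher member was Cyp2d9, a steroid hydroxylase, at 2.20 to 13.2 TPM in Kl/Kl males and 0.842 to 2.49 TPM in Kl/Kl females. Odc1, the androgen-induced ornithine decarboxylase, lay at 11.2 to 19.3 TPM in males and 19.3 to 28.1 TPM in females, a difference of -0.63 (adjusted p = 0.121). The 6 tested genes known as female-biased had a median of -0.13, and at an unadjusted p under 0.05, 1 was higher in males and 1 in females. In controls 4 of the 10 tested members were called higher in females and 2 higher in males. Their control median was -0.11, beside -0.26 over all genes, so these controls bore out the name only in part. Cyp2a5 went against the list median in Kl/Kl, with a difference of 0.64. It lay at 68.5 to 114 TPM in males and 34.9 to 86.1 TPM in females.

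The proximal tubule list stood furthest below 0 among the lists with 10 or more tested members. All 20 markers were tested, and their median difference was -0.55 (-0.36 with median-of-ratios scaling). Of the 20, 10 had an unadjusted p under 0.05, all higher in females, beside 27.6% of all genes. Every female lay above every male for 4 of the 20, a share near the 22.9% of all genes. Slc34a1 was measured at 126, 156, 155, 89.3 and 206 TPM in Kl/Kl males and at 221, 203 and 274 TPM in Kl/Kl females, a difference of -0.71 (95% interval -1.27 to -0.15, adjusted p = 0.130). Cubn, the cubilin partner of megalin, lay at 1.89 to 3.20 and 3.17 to 4.56 TPM, and the brush border enzyme gene Ggt1 at 14.4 to 20.6 and 22.5 to 24.9 TPM in males and females. Gatm, the first enzyme of creatine synthesis, had the most negative difference of the list, -1.60 (95% interval -3.21 to 0.02), with 7.60, 27.7, 17.6, 3.60 and 47.7 TPM in males and 75.7, 29.8 and 46.6 TPM in females. Pck1 (-0.13) and Aqp1 (-0.03), both high in the proximal tubule, lay near the median of all genes. Fewer proximal tubule cells and less RNA per cell cannot be told apart in whole kidney. The control median of this list was -0.61.

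Other nephron lists lay nearer to the median of all genes. The thick ascending limb and distal tubule list had a median of -0.28 over 11 genes, with Slc12a3, the thiazide-sensitive sodium chloride transporter, at 12.1 to 17.0 TPM in males and 18.8 to 22.3 TPM in females, and Egf at 14.9 to 24.7 and 23.5 to 40.4 TPM. Collecting duct genes had a median of -0.07 over 13 genes, with the water channel Aqp2 at 100.4 to 190.4 TPM in males and 88.8 to 110 TPM in females. The medians were -0.13 over 6 podocyte genes, -0.08 over 7 endothelial genes and -0.04 over 6 smooth muscle genes.

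Genes of phosphate, calcium and vitamin D handling, the processes that Klotho governs, had a median of -0.22 over 15 tested genes (-0.04 with median-of-ratios scaling), and 7 had an unadjusted p under 0.05, all higher in females. Pth1r, the receptor of parathyroid hormone, was measured at 7.21, 11.8, 11.4, 10.3 and 14.6 TPM in males and at 15.4, 16.5 and 19.2 TPM in females, a difference of -0.61 (adjusted p = 0.121). Slc34a3, the second proximal phosphate transporter, lay at 4.11 to 12.9 TPM in males and 12.1 to 19.0 TPM in females. Cyp24a1, which inactivates vitamin D, was measured at 0.616, 4.51, 2.37, 10.2 and 10.3 TPM in males and at 10.8, 12.8 and 9.38 TPM in females. Cyp27b1, which activates it, lay at 12.6 to 22.3 and 16.2 to 20.0 TPM, and Vdr, the vitamin D receptor, at 2.59 to 6.02 and 3.32 to 4.46 TPM, both with overlapping groups.

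Transport and metabolic families were alike in that 0 members were called. Organic ion transporters had a median of -0.38 over 11 genes. At an unadjusted p under 0.05, 5 of the 11 were higher in females and 0 in males, beside 27.6% of all genes. Every female lay above every male for 1 of the 11, beside 22.9% of all genes, and every male above every female for 0. That 1 was the carnitine transporter Slc22a5, at 6.76 to 10.0 TPM in males and 12.2 to 14.1 TPM in females. Amino acid transporters had a median of -0.29 over 18 genes, of which 2 had every female above every male and 0 the reverse. At an unadjusted p under 0.05, 8 of the 18 were higher in females and 0 in males. The proline transporter family member Slc6a20b lay at 2.27 to 4.63 TPM in males and 5.51 to 8.15 TPM in females, 2 ranges that did not overlap under either scaling. Acyl-CoA synthetases had a median of -0.34 over 8 genes, of which 5 were higher in females and 0 in males at an unadjusted p under 0.05. Every female lay above every male for 3 of those 8. Fatty acid oxidation genes had a median of -0.15 over 23 genes with 0 at an unadjusted p under 0.05. The 22 nuclear genes of oxidative phosphorylation all had negative differences, from -0.44 to -0.05 with a median of -0.19, and this became -0.01 with median-of-ratios scaling. Sdhc, a subunit of succinate dehydrogenase, lay at 8.04 to 10.1 TPM in males and 11.0 to 12.3 TPM in females. Families of cytochromes P450 had medians of 0.06 over 11 Cyp2 genes and 0.20 over 5 Cyp4 genes, UDP-glucuronosyltransferases one of -0.13 over 7 genes, hormone receptors one of -0.21 over 7 genes, and steroid enzymes a median of -0.0024 over 8 genes. Of the 8 steroid enzymes, 2 had every female above every male and 0 the reverse, a share near that of all genes. Hsd11b2, which inactivates glucocorticoid in the collecting duct, lay at 20.5 to 29.8 TPM in males and 31.9 to 39.3 TPM in females.

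Lists of injury and inflammation also had 0 called members. Genes raised in injured tubules had a median of 0.05 over 13 genes. Spp1, which encodes osteopontin, lay at 183 to 275 TPM in males and 250 to 431 TPM in females, and Lcn2 at 2.49 to 7.17 and 2.74 to 4.47 TPM. Matrix genes had a median of -0.11 over 13 genes, with Col1a1 at 0.364 to 1.54 and 1.23 to 2.34 TPM. Complement and acute-phase genes had a median of -0.10 over 19 genes, interferon-induced genes one of -0.26 over 8, immediate early genes one of 0.01 over 13 and clock genes one of -0.20 over 14. Macrophage genes had a median of -0.42 over 11 genes, and the class II gene Cd74 lay at 6.88 to 20.4 TPM in males and 14.2 to 37.3 TPM in females, with overlapping groups. The 3 tested lymphocyte genes had a median of -0.15.

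Markers of other tissues were measured in the same libraries. Red blood cell genes had a median of -0.51 over 5 genes, and their summed level was 42.1 to 211 TPM in males and 42.6, 1327 and 101 TPM in females, with Hba-a2 at 676 TPM in female replicate 2. Adrenal cortex genes had a median of 0.99 over 5 genes, which came from the 2 males named above. For adipocyte markers the median was 0.65 over 2 genes (summed level 9.72 to 42.4 TPM in males and 12.7 to 21.5 TPM in females). The 1 tested neutrophil gene was at 0.34 and the 1 tested liver gene at -0.14. None of the heart muscle, airway or urothelium markers reached the minimum mean, and their summed levels over the 8 libraries stayed at or below 3.00, 0.658 and 5.86 TPM. The part of blood in the differences was not tested.

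**Figure D4:**
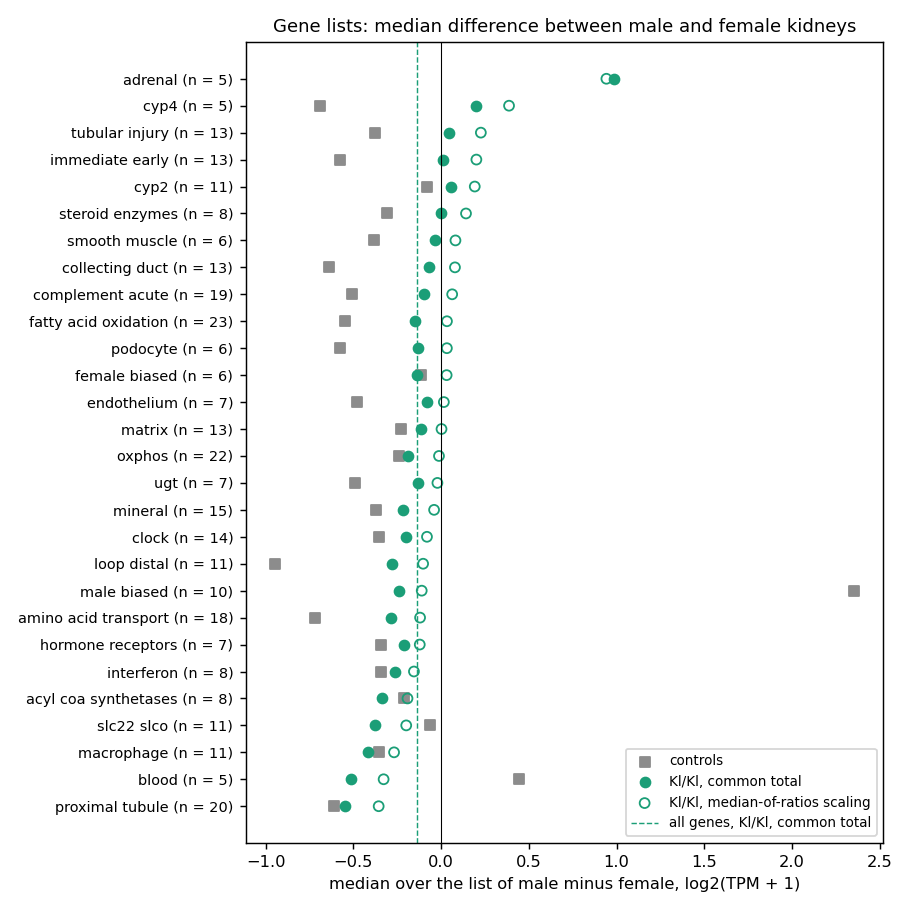
Median male minus female difference in log2(TPM + 1) for each list with at least 5 genes tested in Kl/Kl (n in brackets), in Kl/Kl on the common total (filled circles), in Kl/Kl with median-of-ratios scaling (open circles) and in controls (squares, over the members tested there). The male-biased list lies at 2.36 in controls and at -0.24 in Kl/Kl, and the proximal tubule list lies at -0.55 in Kl/Kl.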

How the data were processed

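Polyadenylated RNA from perfused, flash-frozen kidneys was sequenced, with 1 library a sample. The authors deposited TPM values in 2 tables of 30277 genes each, 1 a sex. Per the submitters' processing notes the build was mm39 and the program Partek, and per the file headers the annotation was Ensembl's. The aligner, counting, strand use and filters were not given in the sources used here. Columns sum to 285327 in every male library and to 265288 in every female library. The tables give each gene a genomic span (median 9858 bp, introns included), the length behind the TPM was not stated in the labels, and levels of different genes are not compared.

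Groups came from the labels. The tables were joined on gene ID, every column was brought to a total of 285327, and 29217 autosomal genes were kept. limma 3.58.1 in R 4.3.3 (lmFit, eBayes with a trend) was fitted to log2(TPM + 1) on genes whose mean over the fitted libraries reached 1 TPM. The pseudocount makes differences of low genes smaller than their log2 ratios. Genes were called at a Benjamini-Hochberg adjusted p under 0.05, adjusted over all genes tested, and every adjusted p is limma's. Standard errors and 95% intervals of differences are limma's too. The permutation test of Kl used SciPy 1.17.1 under Python 3.11.15, with pandas 2.3.3 and NumPy 2.4.6 for tables and matplotlib 3.10.9 for figures. Alternatives were other pseudocounts, filters, scalings, variance priors, weights, covariates and sets of libraries. The reference of the median-of-ratios scaling was taken over all libraries of the series, the one left out included.

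Members and lists were chosen with earlier results of these data known. The rule for named genes took Kl, the 12 largest differences of each sign past the threshold in Kl/Kl with groups that do not overlap and 1 group mean of 5 TPM or more (0 genes met it), the 8 smallest p for the change of difference, and from each list up to 3 called members or the 2 with the highest mean, some of which are printed. Added after the values were seen were the largest differences among genes whose groups do not overlap, the 10 largest of each sign past the threshold in controls, the largest differences whatever the overlap, and further list members. Some genes are not reported here. Promoter sequences are RefSeq's.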

Additional observations from a re-analysis of the deposited data

Results flagged for a closer look

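In male Kl/Kl, the group of 5 libraries, 87 genes were examined at both ends. For 7 of them the highest or lowest library was set apart from the other 4 by more than Dixon's 95% critical value, and in all 7 it was the highest. Chance gives about 1 in 20 for independent, normally distributed values. The 87 were partly chosen by their Kl/Kl values and several of the 7 share a high library, so the 7 are not read against that share. Replicate 4 was the high library for Cyp4a14 (315 TPM), Cyp4a10 (189 TPM), Acadvl (95.2 TPM) and Cyp4b1 (21.2 TPM), genes of fatty acid oxidation and hydroxylation. Replicate 2 was the high library for the adrenal genes Cyp21a1 (25.0 TPM) and Star (16.6 TPM), and replicate 1 for the renin gene Ren1 (60.1 TPM).

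The male minus female difference changed between control and Kl/Kl, by limma's test of the change itself, for 21 of 101 named genes. The change was negative for Acsm3 (-4.71), Slc7a13 (-4.30), Slco1a1 (-3.71), Ugt2b37 (-3.63), Ces1f (-3.59), Eif1ad4 (-3.54), Cyp2j13 (-3.30), Cyp4a12a (-3.26), Acy3 (-3.10), the immunoglobulin gene Igha (-2.94), Kap (-2.88), Cyp4b1 (-2.54) and Nhp2 (-1.46). It was positive for Cyp4a14 (5.76), Ugt1a2 (5.33), Hpd (3.23), Ugt1a1 (2.83), Apoe (2.81), Cbr1 (2.42), Cyp2d26 (2.40) and Rdh19 (1.55). Several were named for their size in controls or for the p of the change itself, so their number among named genes is a description.

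Female Kl/Kl replicate 3, which entered a fit only in the alternatives that added it, held 1275 TPM of Nppa. It also took part in the reference of the median-of-ratios scaling and in the level of the autosomal total. The choice of genes for the correlations between libraries included it too. The effect of this was not tested.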

How the results depend on the processing

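Between Kl/Kl males and females, limma called 0 genes under every alternative run, leaving out each replicate included (range 0 to 0), except that without a minimum mean 9 of 29217 genes passed, 1 higher and 8 lower in males, none above 0.412 TPM in any of the 8 libraries. With the libraries' replicate numbers as a replicate block 0 genes were called there. The numbers did not pair the libraries: same-numbered deviations correlated at -0.073, 0.136 and 0.130, and the block gave 112 calls in controls and 102 for the change of difference. The 202 calls between controls became 334 without a minimum mean, 82 at a minimum of 5 TPM, 645 with median-of-ratios scaling, 496 with an autosomal total, 3710 with array weights, 104 with age and 471 with the name prefix as covariate, and 1434 with median-of-ratios scaling and without male control replicate 3. The 74 calls for the change of difference became 194 without a minimum mean, 34 at a minimum of 5 TPM, 249 with median-of-ratios scaling, 135 with an autosomal total, 118 with columns summing to a standard TPM total, 1297 with array weights, 18 with female Kl/Kl replicate 3, and, with median-of-ratios scaling, 200 without male Kl/Kl replicates 1 and 4 and 269 without male control replicate 3. Leaving out 1 replicate gave 96 to 1162 calls in controls and 46 to 321 for the change, the highest without male control replicate 3, and -0.39 to -0.13 for Kl. In controls the calls were 96, 97, 112 and 117 without female replicates 2, 3, 4 and 1, and 124 without male replicate 2. The 1991 genes whose Kl/Kl groups did not overlap became 906 with the deposited totals, 661 with median-of-ratios scaling, 604 at a minimum of 5 TPM, 277 with female Kl/Kl replicate 3, 3317 without male replicates 1 and 4 and 3391 without male replicates 1 and 2, and 2193 to 2613 without 1 replicate, where fewer libraries overlap less by construction. Median-of-ratios scaling moved the split of control calls from 75 and 127 to 390 and 255. The control difference turned positive for Apob (0.42), Insig1 (0.30) and Mlec (0.31) with array weights, and for Mlec without male control replicate 3 (0.39, and 0.49 with median-of-ratios scaling), while Mlec ran from -0.55 to 0.39 without 1 replicate. Apart from the construction named, the cause was not tested. Among named genes the call of a changed difference was lost in 21 settings for Cyp4b1, 12 for Acy3 and 7 for Kap, and in 1 setting, with female Kl/Kl replicate 3, for 9 others. Alternatives other than the single-library ones were partly chosen after seeing the data: those of the groups that do not overlap, those without male replicates 1 and 2, and those that combine 2 choices.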

Other observations

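The small nuclear RNA genes annotated as U4 and U2 were high in 1 library. U4 was measured at 103 TPM in male Kl/Kl replicate 4 and at no more than 2.98 TPM in any other library used. The U2 copies were listed at 42.0 TPM in that library and at no more than 1.47 TPM in the others. Ak4, a mitochondrial adenylate kinase, was measured at 1.36, 8.73, 10.4, 2.71 and 6.11 TPM in Kl/Kl males and at 9.39, 13.5 and 16.5 TPM in Kl/Kl females, with male replicates 1 and 4 the lowest. Nat8f1, an N-acetyltransferase family gene, was measured at 4.61, 9.19, 14.9, 3.27 and 11.6 TPM in Kl/Kl males and at 22.8, 9.45 and 23.3 TPM in Kl/Kl females.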
